A study of Mus musculus with 12 samples.

Results

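Epcam, Cd24a, Prom1, Tm4sf4, Cd44 and Cd9 are 6 genes for cell surface proteins that are used to mark or sort bile duct cells and liver progenitors. They were chosen by name and found by symbol, 6 of the 54227 genes in the deposited table, and all 6 passed the filter on low values. EPCAM is an adhesion molecule of epithelia that can be cut at the membrane to release an intracellular domain, and in the adult liver it is a marker of bile duct cells. CD24 is a small glycosylated protein held by a lipid anchor, and prominin-1 (CD133) sits on membrane protrusions of many epithelial and progenitor cells. CD44 binds hyaluronan and osteopontin, CD9 is a tetraspanin that organises other membrane proteins, and TM4SF4 belongs to a separate family of proteins with the same number of membrane spans.

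The cells came from dissociated livers of C57Bl/6 mice that carry the Sox9EGFP transgene, in which EGFP serves as a reporter of Sox9, a transcription factor of bile duct cells. All mice were fasted for 16 h, and all 4 populations, including the EGFP-negative one, came from animals with the transgene. Cell sorting gave neg (EGFP-negative), sub (EGFP below low), low and high cells, with 12000 cells per population and 3 libraries each. The study set out to compare the 3 EGFP-positive populations and the negative cells. EGFP was the sorting criterion, so a population is a fluorescence gate and not a purified cell type. The ages of the mice are not given. The 4 libraries of a replicate number share an identifier in the labels, which do not say whether it marks an animal, so p-values measure the spread between these libraries, which may be partly technical.

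Epcam and Tm4sf4 were listed at 0 in all 3 neg libraries and were high in every EGFP-positive library, so the bases before their start sites are shown. The sequences are the strand of the gene from RefSeq on GRCm38.p6, both on plus strands, without bases that the annotation places in an exon. For Epcam they cover 250 bases, chr17:87635729-87635978. For Tm4sf4 they cover 154 bases, chr3:57425160-57425313. Capitals mark the only matches to the motifs searched.
Epcam: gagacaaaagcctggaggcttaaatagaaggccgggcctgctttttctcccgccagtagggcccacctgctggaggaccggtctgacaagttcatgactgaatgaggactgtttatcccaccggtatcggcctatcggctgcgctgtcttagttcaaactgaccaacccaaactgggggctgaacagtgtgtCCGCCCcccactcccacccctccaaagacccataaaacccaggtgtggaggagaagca
Tm4sf4: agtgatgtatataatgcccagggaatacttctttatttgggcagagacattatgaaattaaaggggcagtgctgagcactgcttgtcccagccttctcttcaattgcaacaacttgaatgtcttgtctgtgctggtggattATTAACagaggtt
In Epcam the capitals are a GC box, letters GGGCGG, on the opposite strand, 58 to 53 bases before the start. Read on both strands, a GC box stood in 35.7% of 32851 RefSeq windows that run from 250 bases before a start to 50 after it. In Tm4sf4 the capitals are an HNF1 half-site, letters GTTAAT, on the opposite strand, which 7.10% of the windows held. It lies 109 to 104 bases before the RefSeq start and 13 to 8 bases before the start in the GENCODE M21 annotation. The whole Tm4sf4 window also held the TATA box letters TATAAA just after the RefSeq start, as did 13.6% of windows on either strand. Windows were found for 5 of the 6 genes, and Cd24a was without one. Those of Cd44 and Cd9 held a GC box, Cd9 in 2 places. Prom1 had 2 windows, of which 1 held a GC box and the other none of the motifs searched. The SOX letters ACAATG are in 12.6% of all windows. The TEAD letters GGAATG are in 14.7% and the ONECUT letters, which read ATCAAT, in 7.54%. None of these 3 motifs was in the windows of the 5 genes. No motif searched overlaps another in the sequences shown.

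The recovered depth was 8775387 to 15535588 reads per library. One read was worth 0.691 to 1.22 normalised counts, the deposited unit, which is reads divided by 1 factor per library. Sox9, the check of the labels, was at 1 read or less in each neg library and between 3707 and 17140 in every EGFP-positive library. The summed biliary marker list (14 genes) was 6697 to 12188 in neg, 23510 to 37792 in sub, 66179 to 90029 in low and 62208 to 71495 in high. In neg, Aqp1, which vessels also express, held most of that sum, and Spp1, Cftr, Pkhd1 and Onecut1 were at 0. Krt7, Slc4a2, Pkd2 and Muc1 averaged 186, 487, 608 and 142 there. Sctr was at 0 in neg, sub and high. In limma 6 of the 13 biliary genes tested were called higher in low than in neg, and 7 in high, where 2.55% and 2.44% of all genes were. Aqp1 was called lower in both (adjusted p 0.00529 and 0.0317), where 2.15% and 2.25% of all genes were. The endothelial sum (10 genes) ran opposite to the biliary sum, at 101684 to 130179 in neg, 32788 to 49766 in sub, 713 to 2013 in low and 688 to 914 in high. Stellate and mesenchymal markers (10 genes) were 19108 to 33162 in neg, 24945 to 35206 in sub and at most 2514 in low and high. Hepatocyte markers (12 genes) were 616 to 1016 in neg, 5973 to 8109 in sub and 14730 to 22618 in low and high. Alb, with means of 11246 in low and 11927 in high, and Ahsg, with 3270 and 5268, held most of that sum there. In limma 4 of the 11 tested were called higher in low than in neg, where 2.55% of all genes were. In high 5 were, against 2.44%, and none was called lower in either. Besides Alb and Ahsg these were Apob and Hnf4a in both, and Ttr in high. Apoa1 averaged 410.8 in neg, 82.4 in low and 53.5 in high without being called, and Cyp3a11 was at 0 in all 12. Macrophage markers (10 genes) were at most 474 in neg and 587 in sub, 749 to 1220 in low and 519 to 1288 in high. Csf1r, the macrophage growth factor receptor, was at 0 in all 3 neg libraries and between 518.6 and 1133 in low and high, and limma called it higher in both (adjusted p 0.0162 and 0.0189). It held most of the macrophage sum there, with means of 872.5 in low and 729.0 in high beside list means of 927.5 and 847.0. No other macrophage marker was called, and C1qb averaged 143.7 in neg and 0 in low and high. Lymphocyte, neutrophil, mesothelial, and erythroid and platelet lists stayed at or below 1108 in every library. Cd3e, C1qa, S100a9 and Ly6g were at 0 in all 12. The biliary, endothelial and hepatocyte sums thus stepped from neg to sub and from sub to low and high without overlap. Stellate and mesenchymal sums overlapped between neg and sub and were lower in low and high. Macrophage sums were higher in low and high than in neg. Between low and high the sums of each of these lists overlapped. These shifts stood beside the comparisons with neg and sub that follow, and their part in the results was not tested. In such bulk samples, fewer cells of a type and less RNA per cell cannot be told apart.

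**Figure D1:**
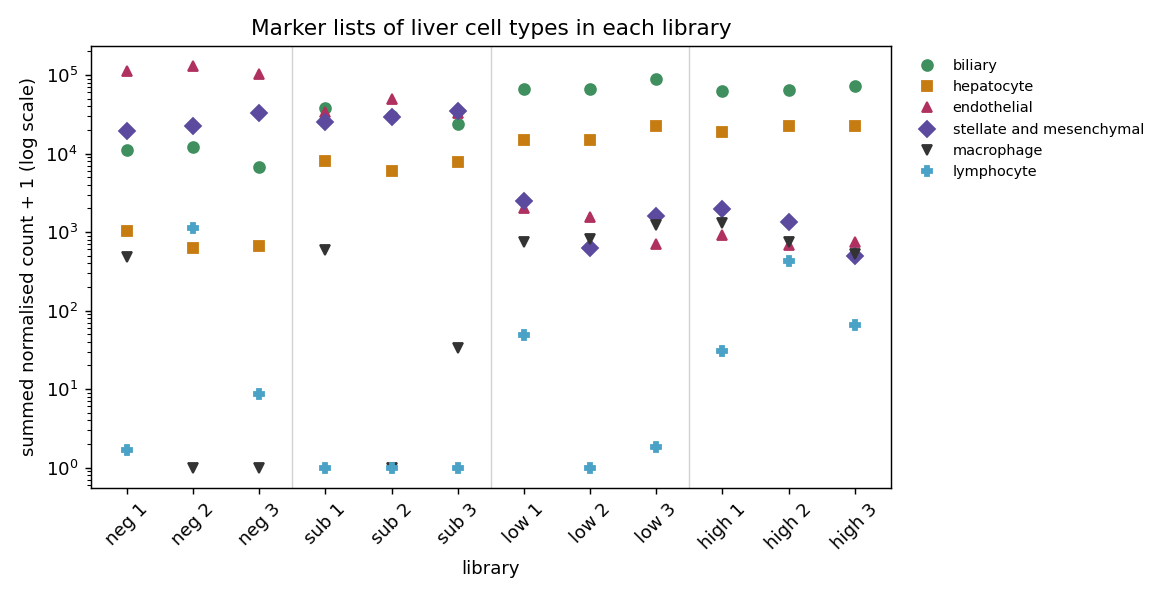
Summed normalised count of 6 marker lists plus 1 (log axis) in each of the 12 libraries, grouped by EGFP population, 1 point per list and library. Endothelial and stellate markers fall to at most 2514 in low and high, while the biliary list runs from 6697 to 12188 in neg and reaches 62208 or more in low and high.

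Against neg, Epcam and Tm4sf4 rose in all 3 EGFP-positive populations and Cd24a rose in low and high. Prom1, Cd44 and Cd9 did not pass the test in any comparison. In limma, with Benjamini-Hochberg adjustment over 16128 genes at 0.05, 2 of 6 members were called higher in sub than in neg, where 1.04% of all genes were. In low against neg 3 of 6 were called higher, against 2.55% of all genes, and in high against neg 3 of 6, against 2.44%. None was called lower, where 0.149%, 2.15% and 2.25% of all genes were. The F test over the 4 populations called the same 3 genes, Epcam (adjusted p 8.23e-07), Tm4sf4 (9e-05) and Cd24a (0.0157), beside 4.23% of all genes. The median log2 fold change of the 6 members was 4.34 in sub, 5.93 in low and 5.91 in high against neg, while the median of all tested genes was 0, 0 and 0.13. Each member median lies between the values of Cd24a and Prom1, which were both at 0 in neg 1. Without neg 1 the Cd24a values were 2.53, 4.76 and 4.24 in sub, low and high, and those of Prom1 were 1.48, 2.43 and 2.92.

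**Figure D2:**
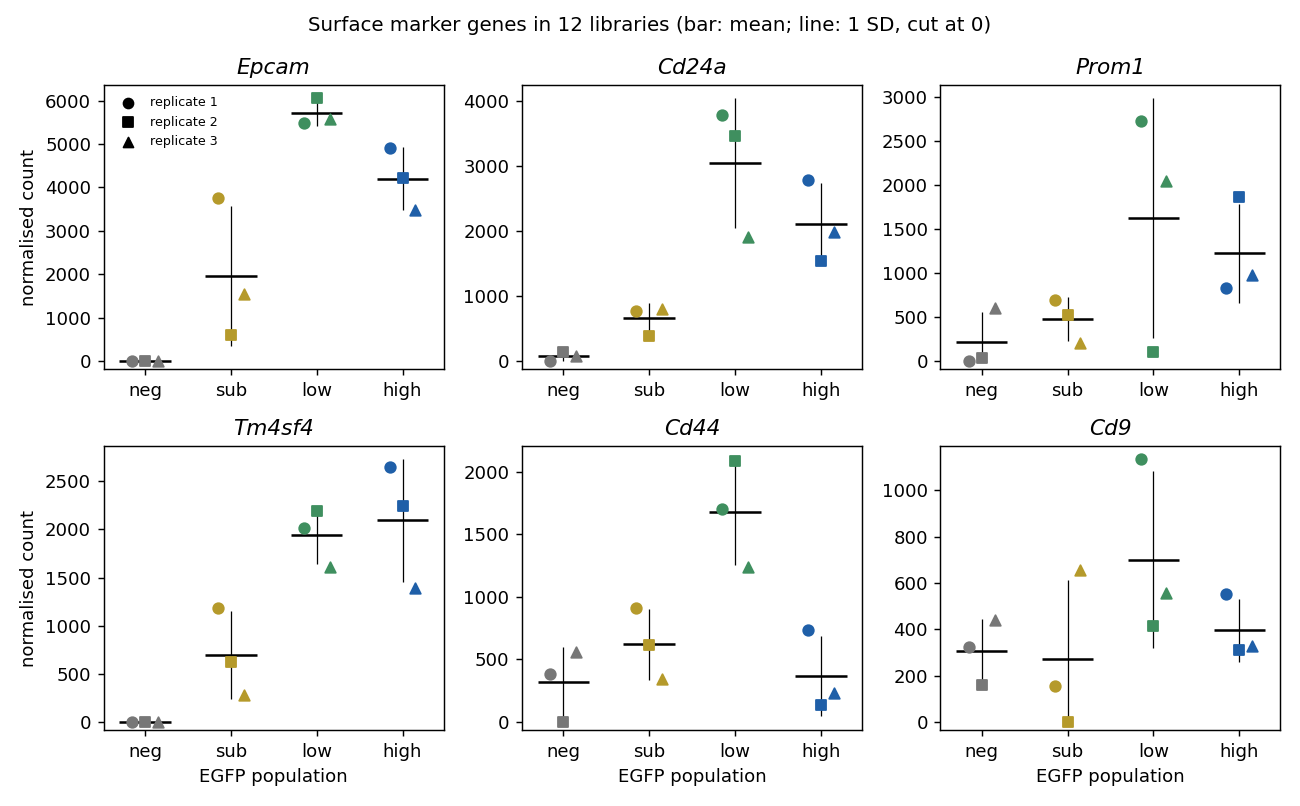
Normalised count (linear axis from 0) of the 6 genes in each library of the 4 EGFP populations. Marker shapes give replicate numbers, bars the mean and thin lines 1 SD (n = 3). Epcam and Tm4sf4 sit at 0 in neg and between 279.3 and 6061 elsewhere, while the Cd9 points of all populations overlap.

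Epcam showed the clearest step between negative and positive gates. The gene occupies chr17:87635979-87651129, plus strand (GRCm38 coordinates of GENCODE M21, as for the genes that follow, all protein coding). Its normalised count was 0 in all 3 neg libraries, and 3748, 592 and 1534 in the sub libraries. The low libraries held 5498, 6061 and 5585, and the high libraries 4921, 4212 and 3487. Sub was thus the population with the widest spread. Of the EGFP-positive populations low was the tightest at 5715 ± 303 (SD, n = 3), and high lay below every low library at 4207 ± 717. Against the limit of 3 reads in a neg library, the level of Epcam was at least 534-fold higher in sub, at least 1558-fold higher in low and at least 1147-fold higher in high. Without sub 1, the highest sub library, the bound for sub was 290-fold. The limma log2 fold changes against neg were 10.56 ± 1.12 in sub (SE, adjusted p 9.71e-06), 12.48 ± 1.12 in low (6.5e-07) and 12.02 ± 1.12 in high (8.71e-07). Log2 values against a population at 0 depend on the pseudocount of 1. Fitted to the sub and neg libraries alone, the call for sub was lost (adjusted p 0.401). No other alternative ended it, and the low and high calls held in every alternative run.

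Tm4sf4 followed the same order of negative and positive gates at lower levels. TM4SF4 is a membrane protein of the L6 family with known expression in liver and intestine. The gene occupies chr3:57425314-57441677, plus strand. Each neg library was at 0. The sub libraries held 1188, 623 and 279 normalised counts, the low libraries 2013, 2192 and 1615, and the high libraries 2645, 2241 and 1397. Every low and high library was above every sub library, and low and high overlapped. Against the same limit of 3 reads, the rise of Tm4sf4 over neg was at least 190-fold in sub, 529-fold in low and 571-fold in high. Without sub 1 the bound for sub was 122.9-fold. The log2 fold changes were 9.21 ± 1.43 (SE, adjusted p 0.000877), 10.91 ± 1.43 (7.5e-05) and 10.98 ± 1.43 (6.49e-05) in limma. As for Epcam, the fit of the sub and neg libraries alone ended the sub call (adjusted p 0.599), and the low and high calls held in every alternative run.

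A population listed wholly at 0 was uncommon at these expression levels but not absent. Among 1533 genes with a mean of 1000 to 3000 over the 12 libraries, the range that holds Epcam, Tm4sf4 and Cd24a, 3.65% were at 0 in all libraries of at least 1 population. Among 3536 genes with a mean of 300 to 1000, the range of Prom1, Cd44 and Cd9, 8.06% were, and 67.3% had a 0 in at least 1 library. Even of 12 genes that most cells use, 4 (Tbp, Hprt, Pgk1 and Hmgb1) were listed at 0 somewhere. Hmgb1 was at 0 in all 3 neg libraries, as Epcam and Tm4sf4 were. Single zeros in Cd24a, Prom1, Cd44 and Cd9 are therefore given as listed values only. The same holds for the neg zeros of Epcam and Tm4sf4, on which their fold bounds rest.

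Cd24a encodes the anchored glycoprotein that binds P-selectin and sialic acid lectins, and it stepped up from neg to low and high. The gene occupies chr10:43578284-43584265, plus strand. The neg libraries held 0, 139.4 and 82.1 normalised counts, and the sub libraries 772, 387 and 806. The low libraries held 3775, 3454 and 1913, and the high libraries 2789, 1535 and 1985. The 3 tiers, neg, sub, and low with high, did not overlap, whereas low and high did. The mean in low (3047 ± 995, SD, n = 3) was 41.3 times that in neg (73.8 ± 70.1), and the mean in high (2103 ± 635) was 28.5 times that in neg. Without neg 2 these ratios of means were 74.2 and 51.2. The log2 fold changes were 7.01 ± 1.44 in low (SE, adjusted p 0.00666) and 6.49 ± 1.44 in high (0.0111). In sub the mean was 8.87 times that in neg (16.0 without neg 2 and 5.91 without neg 1), but the log2 fold change of 4.78 ± 1.44 gave an adjusted p of 0.160. DESeq2 on the recovered reads called that difference (adjusted p 0.0490). Without neg 1, the library at 0, the log2 fold changes were 4.76 in low, 4.24 in high and 2.53 in sub, and the low and high calls held. These calls were the least stable of the members. Leaving out low 1, low 2 or low 3 ended the low call, with adjusted p up to 0.0753. Leaving out low 1 or any high library ended the high call, with adjusted p up to 0.109. Both were also lost in the fit of only the populations compared and in the fit without sub 3 and high 2, and the high call without the variance trend. Cd24a has processed pseudogene copies elsewhere in the genome, Gm15352 and Gm6212, which were listed at 0 in all 12 libraries. Whether reads were split between the copies is not known.

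Prom1, the gene of CD133, was detected in 11 of 12 libraries with a wide spread. The gene occupies chr5:43993620-44102032, minus strand. The neg libraries held 0, 36.7 and 605.6, the sub libraries 695.7, 525.5 and 205.5, the low libraries 2721, 96 and 2048, and the high libraries 829.8, 1865 and 971.1. One neg library was thus within the range of sub, and low 2 was below every sub library. High was the only positive population in which every library lay above every neg library. The mean in high (1222 ± 561, SD, n = 3) was 5.71 times that in neg (214 ± 340), or 5.34 ± 1.88 higher on the log2 scale (SE, adjusted p 0.126). Without neg 3 it was 7.54 (adjusted p 0.0487), and without neg 1, the library at 0, it was 2.92 (0.404). In low the mean was 1622 ± 1363, 7.57 times that in neg, and the log2 fold change of 4.84 ± 1.88 had an adjusted p of 0.186. In sub against neg it was 3.90 ± 1.88 (adjusted p 0.528). Without neg 1 these were 2.43 in low and 1.48 in sub. The ratios of means rested on neg 3, without which they were 66.6 for high and 88.4 for low, and without low 1 the ratio for low was 5.01. A predicted gene on the same strand, Gm42716, overlaps Prom1. It reached 528.5 in its highest library, with a mean of 46.9 over the 12, and reads in the shared stretch are uncertain.

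Cd44 had its highest values in low, while high was close to neg by the mean, and no comparison passed. This receptor gene occupies chr2:102811141-102901665, minus strand. The normalised counts were 384.1, 0 and 562.1 in neg, 907.9, 617.1 and 340.1 in sub, 1705, 2085 and 1239 in low, and 734.7, 139.5 and 229.5 in high. Each low library was above every library of the other 3 populations, and high overlapped both sub and neg. The low mean of 1676 ± 424 (SD, n = 3) was 5.31 times that in neg, with 3.54 times without neg 2 and 8.73 without neg 3. It was 4.56 times that in high, and 9.09 times without high 1, the highest of the high libraries. For low against neg the log2 fold change was 4.77 ± 1.83 (SE, adjusted p 0.177), and for high against low it was -2.51 ± 1.83 (adjusted p 1). The difference of high from neg was 2.26 ± 1.83 (adjusted p 0.581). Without neg 2, the library at 0, it turned to -0.69, and that of low from neg went from 4.77 to 1.82. CD44 is known for its splice isoforms, which values per gene do not separate.

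Cd9 was the only member whose libraries overlapped between every pair of gates. It occupies chr6:125460266-125494791, minus strand. The libraries held 322.7, 161.4 and 438.5 in neg, 155.5, 0 and 656.3 in sub, 1135, 412.9 and 556.4 in low, and 552.9, 309.3 and 326.7 in high. Low had the highest mean, 702 ± 383 (SD, n = 3), 2.28 times that in neg, or 1.17 ± 1.90 on the log2 scale (SE, adjusted p 0.820). Sub lay at -2.60 ± 1.90 against neg (adjusted p 0.703). That sign rested on sub 2, the library at 0, and became 0.17 without it. Against sub, the log2 fold changes of 3.77 ± 1.90 in low (adjusted p 0.521) and 3.03 ± 1.90 in high (0.645) were the largest of the 6 members, and without sub 2 they were 0.997 and 0.26. The pseudogene Cd9-ps was listed at 0 in all 12 libraries, and of 2 antisense genes that overlap Cd9, Gm26728 was at 0 and Gm28809 reached 67.8.

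**Figure D3:**
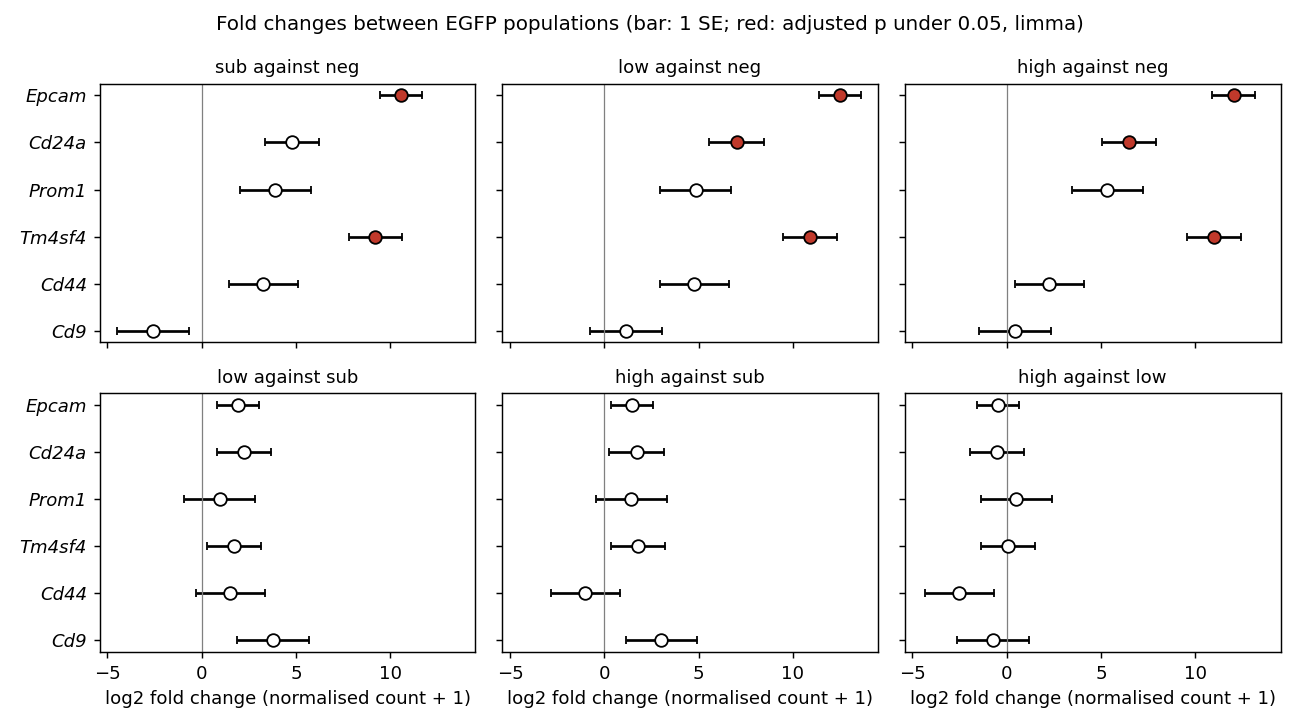
Log2 fold change (normalised count + 1) of each gene in the 6 comparisons of EGFP populations, with bars of 1 SE and red points for an adjusted p under 0.05 in limma. The 8 red points are Epcam and Tm4sf4 against neg in all 3 upper panels and Cd24a in low and high against neg, and the 3 lower panels hold none.

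Within the EGFP-positive cells no member passed. In limma 0 of 6 were called in low against sub, in high against sub and in high against low, where 0.744%, 0.986% and 0.0% of all genes were called in either direction. At an unadjusted p under 0.05 the member counts were also 0, where 10.2%, 10.2% and 4.24% of all genes passed. The member counts on the recovered reads were 0 too, in edgeR, where 1.11%, 1.41% and 0.211% of all genes were called, and in DESeq2, where 13.3%, 12.4% and 5.4% of the 11964 genes given a p were. The direction by level was still mostly one way. All 6 log2 fold changes were above 0 in low against sub, with a median of 1.81 (all genes 0), and 5 of 6 were above 0 in high against sub, with a median of 1.59 (all genes 0.20). Low was free of overlap above sub for Epcam, Cd24a, Tm4sf4 and Cd44, 4 of 6 where 5.75% of all genes were. High lay above sub without overlap for Cd24a, Prom1 and Tm4sf4, 3 of 6 against 7.2% of all genes. Epcam was 2.92 times higher in low than in sub by the means and by 1.92 ± 1.12 on the log2 scale (SE, adjusted p 0.608). Without sub 1 the ratio of the Epcam means was 5.38, and the log2 difference ran from 1.25 to 2.58 with each library left out. Cd24a was 4.65 times higher in low than in sub (2.23 ± 1.44, adjusted p 0.675).

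Low and high were close for most members. Epcam and Cd44 were lower in high with no overlap, 2 of 6 where 3.28% of all genes were. The Epcam means differed 1.36-fold, at -0.45 ± 1.12 on the log2 scale (SE, adjusted p 1). Cd24a was at -0.52 ± 1.44, Prom1 at 0.49 ± 1.88, Tm4sf4 at 0.07 ± 1.43 and Cd9 at -0.74 ± 1.90, each with an adjusted p of 1. The Prom1 means ran the other way, at 1222 in high and 1622 in low, but without low 1 the low mean was 1072. The sign turned for Prom1 without low 2 and in edgeR and DESeq2, and for Tm4sf4 without low 3, high 1 or high 2. An SE of 1.12 to 1.90 leaves room for differences of several fold, and the adjusted p values do not show that low and high hold the same amounts. These SEs were below the median of 2.35 over all tested genes.

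Against neg, the counts without overlap were 3 of 6 in sub (Epcam, Cd24a and Tm4sf4), where 4.69% of all genes were higher without overlap. In low they were 4 of 6 (those and Cd44), against 8.38%, and in high 4 of 6 (Epcam, Cd24a, Tm4sf4 and Prom1), against 10.2%.

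Levels of different genes were compared per kilobase of the longest coding transcript. In low, Epcam had the highest mean, 2801 ± 149 normalised counts per kilobase (SD, n = 3), followed by Cd24a at 1678 ± 548 and Tm4sf4 at 1297 ± 197. Cd9 at 571 ± 312, Prom1 at 397 ± 333 and Cd44 at 299 ± 75.4 followed, and these 3 did not differ beyond their spreads. Epcam stood above the next gene by more than both SDs. In high the order of the means was Epcam (2062 ± 352), Tm4sf4 (1400 ± 426), Cd24a (1158 ± 350), Cd9 (323 ± 111), Prom1 (299 ± 137) and Cd44 (65.5 ± 57.1). Tm4sf4 and Cd24a were within their SDs of each other in both populations, and in high Epcam and Tm4sf4 differed by less than the sum of their SDs. In neg the highest of the 6 was Cd9, at 250 ± 113 per kilobase, above Cd44 (56.2 ± 51.2), Prom1 (52.4 ± 83) and Cd24a (40.7 ± 38.6), while Epcam and Tm4sf4 were at 0. The order of the genes thus differed between negative and positive gates, with Cd9 first in neg and behind Epcam, Cd24a and Tm4sf4 in low and high.

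The genes with the most similar profiles were found by the root mean square difference of centred log2 values over the 12 libraries, among 9613 genes with a mean of at least 100. Nearest to Epcam was Cdh1, the epithelial cadherin, at 0.26, where the median gene differed by 5.66. Mtcl1 (0.38), Myh14 (0.45), Scara3 (0.51) and Onecut2 (0.60) followed. Cdh1 held 1.38, 1.22 and 0.966 in neg, at 1 or 2 reads a library, and means of 4546 in sub, 15784 in low and 12684 in high. Its sub libraries, 7884, 2118 and 3635, were ordered as those of Epcam. Among the nearest to Tm4sf4 were Chdh (0.46), Map7 (0.47), Wnk2 (0.53) and Ehf (0.63), with a median gene at 5.16. Epcam and Tm4sf4 differed from each other by 0.81, which placed Epcam at rank 24 for Tm4sf4.

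The other members had looser neighbours. For Cd24a the closest were Ptprj (0.73), Patj (0.80), Myrf (0.84) and Efhd2 (1.03), against a median of 4.20. For Prom1 the closest, Cited2, was at 1.35, and Ptprj was again among the first 5, at 1.39. The nearest to Cd44 was Ctdspl2 (0.83) and the nearest to Cd9 was Vps39 (0.66). Cd24a and Prom1 differed by 1.84 and Cd9 and Epcam by 5.52, so the 6 markers did not share 1 profile.

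Partners and relatives of each protein were taken from lists written for each, chosen with earlier results of these data known. The EPCAM list joins the claudins and the tetraspanin that associate with it, and the proteases that cut it. In these lists, the shares of all genes called higher against neg were the 1.04%, 2.55% and 2.44% given above. Against sub they were 0.13% in low and 0.118% in high for higher calls, and 0.614% and 0.868% for lower ones. Of 49 calls of list genes, 22 held whichever library was left out. The 13 genes of the EPCAM list gave 12 tested. In limma 2 were called higher in sub than in neg, 4 in low and 3 in high, with none lower. These were Cldn3, Cldn4, Cldn7 and Tspan8. Cldn3, a tight junction protein, was at 2 reads or fewer in each neg library. Its mean was 399 ± 263 (SD, n = 3) in sub, 1934 ± 763 in low and 1413 ± 659 in high. Its log2 fold change in low was 10.43 ± 1.55 (SE, adjusted p 0.000304). Tspan8 was 0 in every neg library, 438.5, 2810 and 628.4 in sub, 3140, 3354 and 4776 in low, and 1378, 1406 and 1939 in high. Its rise from neg to low was at least 1024-fold (adjusted p 1.35e-05). Cldn4 had a level of 1589 ± 115 in low and was listed at 0 in neg and in sub 3. Its log2 fold change in low was 10.63 ± 2.43 (adjusted p 0.0139), and the call was lost when any neg or low library was left out (adjusted p up to 0.0833). Its call in high (adjusted p 0.0490) was lost when any library but sub 2 or sub 3 was left out (up to 0.224). Cldn7 rose in low by 9.51 ± 2.39 (adjusted p 0.0258), a call lost without neg 1, neg 2 or any low library. The proteases Adam10, Adam17 and Bace1 were not called in any comparison.

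Among the other tetraspanins, 20 of 27 were tested. Tspan8, described above, was the only one called higher against neg, in all 3 EGFP-positive populations. Cd151 and Tspan18 were called lower in low. Cd151, which binds laminin receptors, held 668.1, 335.1 and 787.1 in neg and 25.2, 0.85 and 0 in low, but 758.9, 695.3 and 344.7 in high. Its log2 fold change in low was -7.27 ± 1.84 (SE, adjusted p 0.0269). Leaving out neg 3, or testing with edgeR, ended this call. The neg and high libraries overlapped. The Tspan18 call (adjusted p 0.0499) was lost when any library but sub 3 was left out (adjusted p up to 0.166). The leukocyte tetraspanins Cd37 and Cd53 were at 0 in all 12 libraries. Cd63 and Cd81, which accompany CD9 on many cells, were not called in any comparison.

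The 8 CD9 partners were all tested. Against neg 2 were called higher in low, Hbegf and Itga3, and 1 lower, Cd151, described above. In high 1 was called higher, Hbegf, and none lower. Hbegf, a growth factor precursor that CD9 binds at the membrane, held 951, 3089 and 1176 in neg, 3759, 3497 and 2699 in sub, 8033, 13183 and 9398 in low, and 9682, 9000 and 13844 in high. All low and high libraries were above all neg and sub libraries. The log2 fold change was 2.72 ± 0.40 in low (SE, adjusted p 0.000231) and 2.82 ± 0.40 in high (0.000159), and it also passed for high against sub (1.70 ± 0.40, adjusted p 0.0451). The last of these calls was lost without any sub, low or high library (adjusted p up to 0.252). The low and high calls held whichever library was left out, but neither held without the variance trend (adjusted p 0.177 and 0.148) or in the fit of only the populations compared. The laminin receptor subunit Itga3 rose in low by 3.46 ± 0.91 (adjusted p 0.0333), from 387 ± 342 to 2945 ± 673. Of the TM4SF family, 1 of the 4 relatives of Tm4sf4 was tested, Tm4sf1. It was 983.9, 409.7 and 377.6 in neg and 2721, 3945 and 3268 in low, or 2.61 ± 0.68 on the log2 scale (adjusted p 0.0304). Its highest value, 8174, was in sub 2. The Itga3 and Tm4sf1 calls were each lost without neg 3 and also without any low or high library (adjusted p up to 0.117 and 0.134).

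The CD44 list holds its ligands, the linkers to actin, hyaluronan genes and splice regulators, and 16 of 18 were tested. Called higher against neg were 2 in sub, 3 in low and 3 in high, and called lower were 0, 3 and 2. Those higher were Spp1, Ezr and Esrp1. Spp1, the gene of osteopontin and also in the biliary list, was 0 in each neg library and 9984 ± 3261 (SD, n = 3) in sub, 35181 ± 7404 in low and 30687 ± 5108 in high. Its rise from neg to low was at least 9589-fold (adjusted p 5.57e-13). The linkers went in opposite directions. Ezr rose from 1783 ± 1307 in neg to 13940 ± 4155 in low, by 3.20 ± 0.47 (SE, adjusted p 0.000244), a call that held whichever library was left out but not without the variance trend or in the fit of only the populations compared. Its call in sub (adjusted p 0.0232) was lost when any library but neg 3 was left out (up to 0.295), and its call in high (0.00331) without neg 1, neg 2, high 2 or high 3 (up to 0.0949). Msn fell from 9610 ± 3533 in neg and 6157 ± 2343 in sub to 516 ± 331 in low and 337 ± 179 in high. Its log2 fold changes against neg were -4.44 ± 0.72 in low (adjusted p 0.000719) and -4.96 ± 0.72 in high (0.000202). Against sub they were -3.80 ± 0.72 (adjusted p 0.0178) and -4.32 ± 0.72 (0.00386), and both calls were lost without sub 2. The first was also lost without sub 1, sub 3, low 2 or low 3 (adjusted p up to 0.102), and both in the fits without the trend and without sub 3 and high 2. Rdx, the third of these linkers, was not called. Esrp1, an epithelial splice regulator that acts on CD44, was listed at 0 in neg and held 516.6, 360.8 and 858.4 in high (log2 fold change 9.09 ± 2.14, adjusted p 0.0164). That call was lost in edgeR, as was the low call (adjusted p 0.0343), which also went without low 3. The hyaluronan receptors Stab2 and Lyve1, which are also in the endothelial list, were those lower in low besides Msn. Stab2 went from 30103 ± 5878 in neg to 283 ± 393 in low, or -9.39 ± 1.83 on the log2 scale (adjusted p 0.00447). That call was lost without any of the neg libraries, sub 1, sub 3 or low 3 (adjusted p up to 0.0981), and the Lyve1 call (adjusted p 0.0468) without most libraries (up to 0.125).

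For CD24, 6 of 8 ligand and kinase genes were tested, and calls came only in high against neg. Selp, the gene of P-selectin made by endothelial cells and platelets, held 1606, 791 and 2215 in neg and 0 in every high library (log2 fold change -10.46 ± 2.26, SE, adjusted p 0.00928). Fyn was at -9.13 ± 2.33 (adjusted p 0.0276). That call was lost when any library but low 2 or high 1 was left out (up to 0.200), and in edgeR. Hmgb1, a ligand of CD24, was listed at 0 in neg although most cells use it, and was called higher (adjusted p 0.0471). It was also at 0 in low 2, and the call was lost when any library but low 2 was left out (adjusted p up to 0.233).

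Other surface markers of liver progenitors gave 16 tested of 20. In limma 3 were called higher in sub than in neg, 5 in low and 5 in high, and 1 each in low and in high against sub, with none lower. The 5 were Cdh1, St14, Alcam, Itgb4 and Cd14. Alcam, an adhesion molecule, was the only one to pass against both neg and sub. It held 730, 1097 and 1950 in neg, 3599, 3775 and 3342 in sub, 12509, 11288 and 8230 in low, and 12120, 14289 and 10785 in high. The log2 fold change was 1.62 ± 0.35 (SE, adjusted p 0.0227) for sub against neg, 1.56 ± 0.35 (0.0442) for low against sub and 1.79 ± 0.35 (0.0175) for high against sub. These 3 calls were each lost without any sub library (adjusted p up to 0.158), whereas those of low and high against neg held whichever library was left out. Without the variance trend none of the Alcam calls held (adjusted p 0.0867 for low and 0.0603 for high against neg). St14, a membrane protease of epithelia, was called higher in sub (7.22 ± 1.74, adjusted p 0.0467), low and high, and Itgb4, a laminin receptor subunit, in low (7.40 ± 1.66, adjusted p 0.0120) and high. No St14 call held in edgeR or DESeq2 on the recovered reads, and each was lost without neg 1, neg 2 or several other libraries (adjusted p up to 0.327). Both Itgb4 calls were lost in edgeR and without neg 2, neg 3, high 1 or high 2 among others (up to 0.0969). Cd14, a lipopolysaccharide receptor, was listed at 0 in neg and was called in low and high (log2 fold change 8.71 ± 2.04, adjusted p 0.0163 in low, 0.0532 without low 2). Dlk1 and Ly6d were at 0 in all libraries, and Lgr5 had 1 read in neg 1. Icam1, one of the most abundant of the list, was between 4739 and 14052 in all 12 libraries and was not called.

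**Figure D4:**
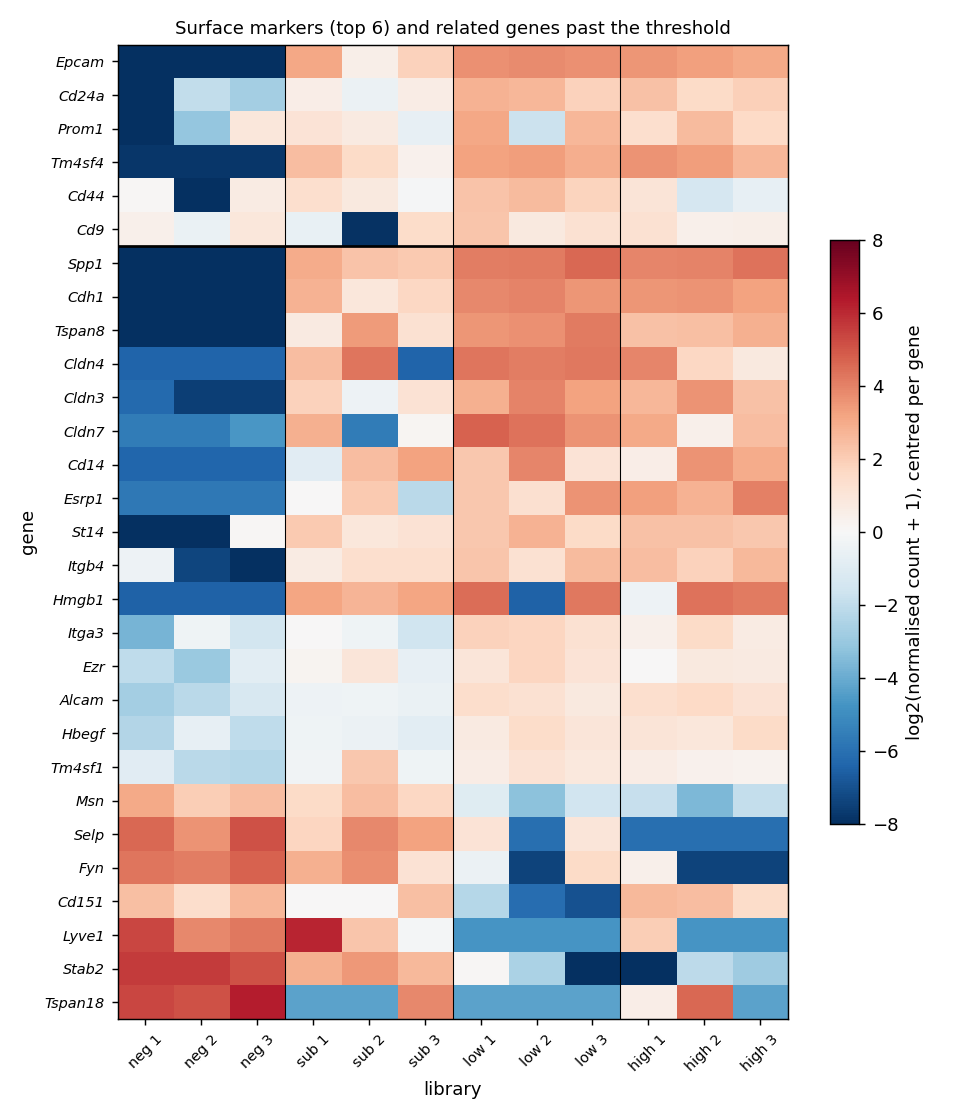
Log2(normalised count + 1) centred per gene in the 12 libraries (colour scale from -8 to 8, values outside it are drawn at its ends) for the 6 surface markers and the 23 related genes called in any comparison. Rows below the line are ordered by the log2 fold change of low against neg, with Spp1, Cdh1 and Tspan8 at the top and Lyve1, Stab2 and Tspan18 at the bottom.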

How the data were processed

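Total RNA of 12000 sorted cells was made into each library with a stranded kit for small inputs (SMARTer Pico v2), per the labels' protocols. The submitters' processing notes name Salmon, DESeq2 1.26.0 and mm10. Strand use in counting is not given in the sources used here. The signal deposited by the authors is a normalised count for each gene symbol in each library. In all 12 columns the values were whole multiples of 1 step (tolerance 0.001 reads), so reads were recovered as multiples; in sub 3 and high 2 the step is close to 1. Intervals and limits from reads cover counting error only.

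Genes with a mean of at least 10 were kept, 16128 of 54227. limma 3.58.1 in R 4.3.3 was fitted to log2(normalised count + 1) of the 12 libraries, with a term for population, none for replicate, and a variance trend, two-sided, with Benjamini-Hochberg adjustment over all genes tested. Fold changes on this scale depend on the pseudocount: they understate changes of genes low in every library and can exceed the ratio of means where a library is at 0. Folds against a population at 0 use 3 reads of the neg library in which a read is worth most. edgeR 4.0.16 (quasi-likelihood) and DESeq2 1.42.0 on the recovered reads of 12 libraries were alternatives, with other pseudocounts, filters and scalings, a replicate block, and each library left out.

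Named genes were the members, Sox9, the 5 genes nearest in profile to each member, and in each list the 3 with the highest mean and up to 6 that passed in any comparison; of these, those a result turns on are printed, and some items are not reported here. Adam17, Bace1, Rdx, Cd63, Cd37, Cd53, Dlk1, Ly6d, Lgr5, Sctr, Apoa1, Cyp3a11, C1qa, Cd3e, S100a9 and Ly6g fall outside this rule and were chosen after their values were seen. The same holds for Krt7, Slc4a2, Pkd2 and Muc1. Upk1b was in 2 lists, as were Tspan8, Cd81, Cd151, Itga6, Spp1, Stab2 and Lyve1. The members and lists were chosen with earlier results of these data known.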

Additional observations from a re-analysis of the deposited data

How the results depend on the processing

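The members called in sub against neg numbered 2 in the fit of all libraries and 0 when only the populations compared were fitted. Over all alternatives they numbered 0 to 3 there, 2 to 3 in low against neg, 2 to 4 in high against neg and 2 to 3 in the F test, where the counts over all genes ran from 0 to 1698, 203 to 2352, 341 to 2257 and 500 to 930; with each library left out the ranges were 2 to 2, 2 to 3, 2 to 4 and 2 to 3. In the other 3 comparisons they stayed at 0 in every alternative. Of the 8 member calls, 6 held whichever library was left out and 4 held in every alternative; the 4 that did not were Epcam and Tm4sf4 in sub and Cd24a in low and high. No call changed direction. Signs of uncalled differences that turned were those of Prom1 in high against low (-0.42 in edgeR, -0.41 in DESeq2, and -1.04 to 1.36 with each library left out), Tm4sf4 in high against low (-0.0018 in the 10-library fit, -0.12 to 0.34), Cd44 in high against neg (-0.69 to 3.87) and Cd9 in sub against neg (-4.51 to 0.17). The fit without sub 3 and high 2 was added after the data were seen. The cause of these changes was not tested.

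Over all genes the counts called in limma, edgeR and DESeq2 were 192, 207 and 1698 for sub against neg, 757, 602 and 2352 for low against neg, 757, 619 and 2257 for high against neg, 120, 179 and 1593 for low against sub, 159, 227 and 1485 for high against sub, and 0, 34 and 646 for high against low. Fitted to the 2 populations alone, the first 3 counts were 0, 203 and 341. With the replicate number as a block they were 180, 720 and 715, and the counts of members called were again 2, 3 and 3 against neg and 0 in the other pairs. Of the list calls named, the block ended those of Alcam in low against sub, Hmgb1 in high, Tspan18 in low and Esrp1 in low. The pairing was checked by correlations of deviations from the population means. Between same-numbered libraries they ran from -0.0161 to 0.0266 over 18 pairs (mean 0.00881). Between different numbers they ran from -0.0447 to 0.0234 (mean -0.00439). This check cannot decide whether a number marks an animal, because no pair known to share an animal was at hand for comparison. The main fit did not pair the samples. No F test was run in the fit of only the populations compared. At 3 libraries a population, the median SE of 2.35 on the log2 scale limits what could be called.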
